A study of Homo sapiens with 3 samples.

Results

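Of the 4513 SOX4 peaks called in Hep3B cells, 504 lay in gene deserts, taken here as positions more than 500 kb from every protein-coding gene of the RefSeq table (GRCh38.p14). Membership was decided by the summit of the peak, its highest point, and used neither the height of the peak nor the STAT6 list. Hep3B is an established human hepatocellular carcinoma line, and the study asked which genomic sites and target genes SOX4 and STAT6 share in it. The line was profiled by CUT&RUN, in which a nuclease tethered to the antibody releases DNA around bound sites, with 1 library for a SOX4 antibody, 1 for a STAT6 antibody and 1 for non-specific IgG. Peaks of the SOX4 and STAT6 libraries were each called against the same IgG library, so both lists share that control. With 1 library per antibody there was no replicate check, and the intervals below, Wilson for shares and exact Poisson for densities, cover counting error over peaks at 95% and nothing else. How many reads each library held is unknown. The lists hold no expression values, so the liver identity of the cells was not checked.

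SOX4 belongs to the SoxC group of high-mobility-group box transcription factors, which bind short AT-rich sites in the minor groove and act in neural and mesenchymal development and in many carcinomas. Gene deserts are long stretches without protein-coding genes. Some flank developmental regulators and carry distant enhancers, others surround the centromere, where tandem satellite repeats make up much of the sequence, and many hold long noncoding RNA genes and pseudogenes. STAT6 is the signal transducer activated by interleukin-4 and interleukin-13.

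Gene deserts made up 443 Mb, or 14.3% of the nuclear sequence, with any assembly gaps counted in, and held 11.2% of the SOX4 peaks. They formed 332 separate stretches, of which 177 held at least 1 peak and 155 held none. The stretches with a peak had a median length of 1.02 Mb, against 0.308 Mb for those without. Among the 108 stretches of at least 1 Mb, 91 held a peak. In 74 stretches the peak was alone. The peaks seldom lay close together, since grouping peaks within 10 kb of each other left 481 groups, of which 20 had more than 1 peak and the largest had 5. The 27 stretches with 5 or more peaks accounted for 224 of the 504.

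The rule leaves no protein-coding promoter in a gene desert, and few of the peaks lay at any other annotated promoter. The sequence table held 34943 promoter windows, each running from 250 bases before to 50 after a RefSeq start site, and 670 of these windows lay in gene deserts. Of the 504 peaks, 3 overlapped a window (0.595%), and each window belonged to a long noncoding RNA gene. Of all 4513 SOX4 peaks, 157 did (3.48%). That share includes protein-coding promoters, which the rule keeps out of deserts, so a lower desert share was fixed in part beforehand. The sequences of the 3 desert windows are shown because they are the places where a peak coincides with the start of a gene. The capitals mark the SOX core, searched on both strands as NNCAANG with A or T and no other base at each N, and the STAT motif, searched as TTC and GAA with 3 or 4 bases of any kind between. The windows are given 5′ to 3′ from RefSeq (GRCh38.p14), and all 3 genes lie on the plus strand.
LINC01707: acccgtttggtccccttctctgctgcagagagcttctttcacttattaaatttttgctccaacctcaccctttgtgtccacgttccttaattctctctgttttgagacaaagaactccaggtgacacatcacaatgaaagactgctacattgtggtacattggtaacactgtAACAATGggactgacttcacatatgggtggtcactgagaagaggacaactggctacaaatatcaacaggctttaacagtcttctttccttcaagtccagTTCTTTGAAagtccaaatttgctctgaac
LOC105378393: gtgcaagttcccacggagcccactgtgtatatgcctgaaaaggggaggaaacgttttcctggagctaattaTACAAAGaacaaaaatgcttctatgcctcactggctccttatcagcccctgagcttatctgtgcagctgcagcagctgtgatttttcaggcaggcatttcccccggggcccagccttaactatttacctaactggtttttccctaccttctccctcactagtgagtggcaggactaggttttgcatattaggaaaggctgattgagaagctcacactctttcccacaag
LOC105373992: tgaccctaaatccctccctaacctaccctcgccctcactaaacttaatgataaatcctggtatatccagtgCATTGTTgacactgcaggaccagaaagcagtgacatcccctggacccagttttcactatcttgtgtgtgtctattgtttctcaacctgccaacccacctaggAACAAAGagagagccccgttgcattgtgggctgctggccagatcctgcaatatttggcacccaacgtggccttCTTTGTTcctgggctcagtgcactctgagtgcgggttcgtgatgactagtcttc

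The window of LINC01707 (chr1:69055648-69055947) lay wholly inside a peak of fold enrichment 18.8 over IgG, and the summit fell inside the window, 224 bp from the start site. It held 2 SOX core matches, of which the one nearer the start site overlapped the single STAT match of the window. The peak at LOC105378393 (window chr10:83546065-83546364, 1 SOX core match) had a fold enrichment of 5.47, and the peak at LOC105373992 (window chr3:94647835-94648134, 3 matches) had 8.2. In both of these the summit lay outside the window, 285 and 557 bp from the start site. None of the 3 peaks overlapped a STAT6 peak. Over all 34943 windows, 20.4% held a SOX core match and 13.5% a STAT match, so that a match in any given window is common. The sequence under the other peaks was not analysed here.

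On the chromosomes the peaks fell into a group around the centromeres and a group along the arms. A centromere was placed in 2 ways, as the widest stretch without any annotated gene and by approximate hand-written bounds, each with 2 Mb added on either side. By the first, 144 peaks (28.6%, 24.8 to 32.7) were pericentromeric, in 47.3% of the desert sequence. By the second, 174 peaks (34.5%) were, in 20.8% of the desert sequence. The 2 placings shared 135 peaks. On chromosome Y the first placing fell in the 30.4 Mb desert between CDY1 and VAMP7, outside the hand-written bounds. That stretch held no peak and counts in the 47.3%. How much of it is assembly gap, where no peak can be called, was not checked. Below, the 183 peaks inside either placing (36.3%) are called near a centromere, and the other 321 (63.7%, 59.4 to 67.8) are called arm peaks. On chromosome 1 the gene-free stretch thereby takes in peaks about 18 Mb from the hand-written bounds. Subtelomeric positions, within 2 Mb of a chromosome end, held 2 peaks (0.397%, 0.109 to 1.44), and both are counted among the arm peaks. These positions made up 3.16% of the desert sequence. They include the starts of chromosomes 13, 14, 15, 21 and 22, and any assembly gaps there count in the length.

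**Figure D1:**
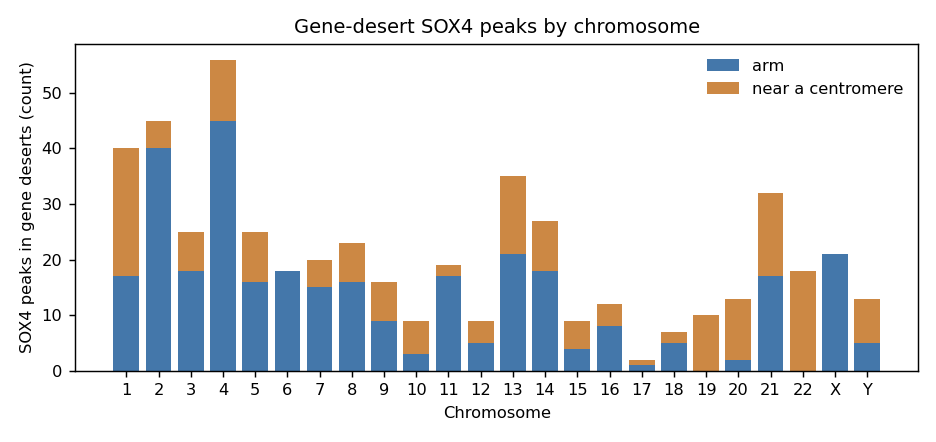
Number of gene-desert SOX4 peaks on each chromosome, with arm peaks in blue and peaks near a centromere stacked above them in orange. Chromosome 4 holds the most, 56, while all 10 on chromosome 19 and all 18 on chromosome 22 lie near a centromere.

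The share of a chromosome's SOX4 peaks that lay in gene deserts ran from 1.74% on chromosome 17 (2 of 115) to 36.8% on chromosome 21 (32 of 87). The plot of counts by chromosome shows that chromosome 21 owed 15 of its 32 to the centromere and 17 to its arms, where the density, 2.61 per Mb of arm desert (1.52 to 4.19), was the highest of any chromosome. Chromosome X had 21 peaks, all on the arms, at 2.07 per Mb (1.28 to 3.17). The lowest arm density above 0 was on chromosome 10, with 3 peaks and 0.465 per Mb (0.0959 to 1.36). The intervals of chromosomes 10, 18 and 21 left out the value of 1.43 per Mb for all arm deserts, and those of the other chromosomes with arm desert held it.

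Counted at any height, SOX4 peaks were about as dense in arm deserts as on the rest of the arms, while strong peaks were sparser. Arm deserts held 1.43 peaks per Mb (1.28 to 1.59) and the arms elsewhere 1.51 (1.47 to 1.56), a ratio of 0.945. Over all sequence, any assembly gaps included, the ratio was 0.751, with 1.14 per Mb in deserts (1.04 to 1.24) and 1.52 elsewhere (1.47 to 1.56). For peaks whose fold enrichment reached 5 the ratio fell to 0.463 (0.4 to 0.537) over all sequence and 0.85 (0.73 to 0.99) on the arms. The desert sequence near centromeres, by either placing, held 0.839 per Mb (0.721 to 0.969). Any assembly gaps and the chromosome Y stretch between CDY1 and VAMP7 count in its length. The direction depended on the placing. By the gene-free stretch alone the density was 0.687 per Mb, below the arm value of 1.43. By the hand-written bounds alone it was 1.89, above the arm value. Peaks that overlapped a STAT6 peak behaved otherwise: the arms held 0.0223 of them per Mb in deserts (0.00723 to 0.0519) against 0.233 elsewhere (0.214 to 0.252). Without them the arm densities were 1.41 in deserts (1.26 to 1.57) and 1.28 elsewhere (1.24 to 1.32).

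**Figure D2:**
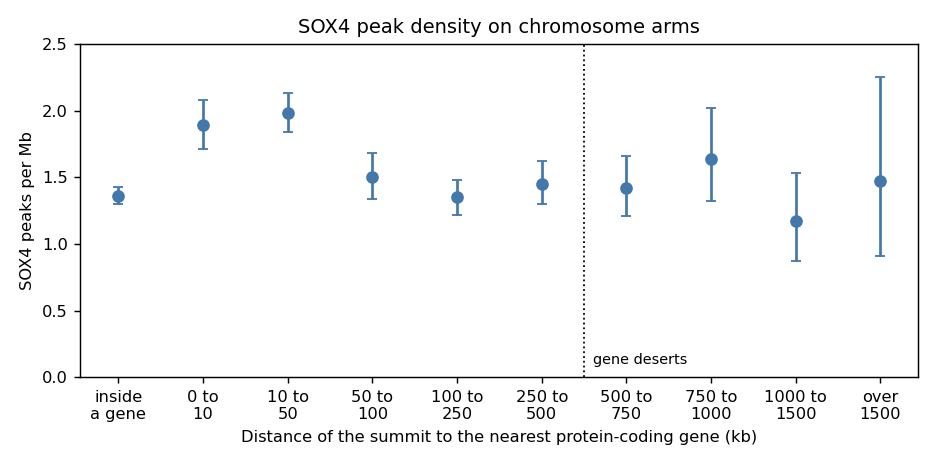
SOX4 peaks per Mb of chromosome arm in 10 classes of distance between the summit and the nearest protein-coding gene, in kb, with exact Poisson 95% intervals as bars; the classes right of the dotted line are gene deserts. The density is highest between 10 and 50 kb from a gene, at 1.98 per Mb, and the 4 desert classes lie between 1.17 and 1.64.

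The density by distance class was 1.42 per Mb from 500 to 750 kb, 1.64 from 750 to 1000 kb, 1.17 from 1000 to 1500 kb and 1.47 beyond 1500 kb, and these 4 intervals overlapped each other. The class just short of the limit, 250 to 500 kb, had 1.45 (1.3 to 1.62). The median fold enrichment was also level across the classes outside genes, at 5.18, 5.66, 5.19 and 5.47 in the 4 desert classes and between 5.2 and 5.48 in the others. Inside protein-coding genes it was 8.75. The share of peaks with a STAT6 peak was 29.5% inside genes, 5.68% within 10 kb, 6.66% from 10 to 50 kb and 0.932% from 250 to 500 kb. In the 4 desert classes, from near to far, 3 of 156, 1 of 92, 0 of 52 and 1 of 21 peaks had one.

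The 3 peaks just inside the 500 kb limit lay 500.2 kb, 502.3 kb and 503.6 kb from the nearest protein-coding gene, with fold enrichments of 4.37, 4.67 and 2.92. The 3 just outside lay at 498.5 kb, 497.3 kb and 495.6 kb, with 14.8, 1.67 and 3.23. The 3 farthest peaks were all on the short-arm side of chromosome 22, between positions 11346201 and 11702620, where the nearest protein-coding gene is the olfactory receptor gene OR11H1. They lay 4182, 4036 and 3826 kb from it, with fold enrichments of 2.97, 14.1 and 1.39.

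Gene-desert peaks were weaker than SOX4 peaks elsewhere, most of all near the centromeres. Their median fold enrichment over IgG was 3.91 (quartiles 2.62 and 6.38), against 6.2 (4.01 and 13.7) for the 4009 peaks elsewhere. Desert peaks near a centromere had a median of 2.22 (1.86 and 2.91) and a median width of 361 bp. The 175 SOX4 peaks near a centromere elsewhere had 5.47 (3.64 and 8.34) and 822 bp. Arm peaks had 5.41 (3.73 and 8.2) and 830 bp, against 6.2 (4.01 and 14.2) and 924 bp for SOX4 peaks on the arms elsewhere. Of the 1266 peaks elsewhere that reached a fold enrichment of 10, 598 overlapped a STAT6 peak. Without the peaks that did, the median was 5.4 for the 3401 left elsewhere and 5.28 for the 316 left in the arm deserts. The 3401 include peaks near a centromere. Strong peaks were still fewer in the arm deserts, where 13.3% (9.99 to 17.5) reached a fold enrichment of 10. Of the 3401, 19.6% (18.3 to 21) did.

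**Figure D3:**
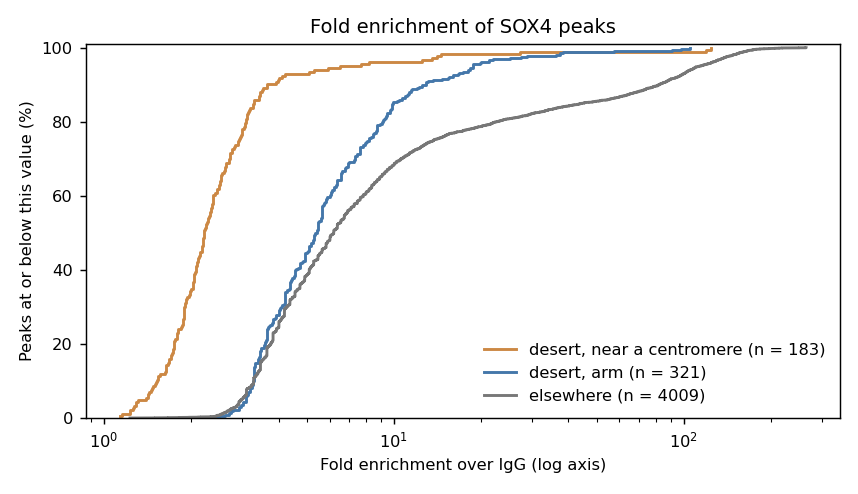
Cumulative share of SOX4 peaks, in percent, by fold enrichment over IgG on a log axis, for 183 desert peaks near a centromere, 321 desert peaks on the arms and 4009 peaks elsewhere. The curve near centromeres lies furthest left, and the arm and elsewhere curves run together at low values and part at higher ones.

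Of the 504 peaks, 54 reached a fold enrichment of 10 (10.7%, 8.31 to 13.7), against 29.2% of all SOX4 peaks, and 47 of the 54 were on the arms. That was 14.6% of the arm peaks (11.2 to 18.9), against 32.2% of the SOX4 peaks on the arms elsewhere (30.7 to 33.7). At the other end, 64 had a fold enrichment below 2 (12.7%, 10.1 to 15.9), against 1.62% of all SOX4 peaks. All 64 lay near a centromere as defined above, and gene deserts held 87.7% of the 73 such peaks in the whole list. They were 35% of the desert peaks near a centromere, against 4% below 2 among peaks elsewhere near a centromere. The statistical support of the peaks, given as −log10 q, followed their fold enrichment on the arms, with a median of 12.5 for arm peaks and 3.91 near centromeres. It did not do so for 6 peaks on chromosome 1 whose fold enrichment was 1.13 to 1.47 although their −log10 q exceeded 20 and reached 182. These 6 lay at chr1:125180071-125182635 and chr1:143214342-143264161, on either side of the heterochromatic block below the centromere, and all 6 overlapped a STAT6 peak.

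**Figure D4:**
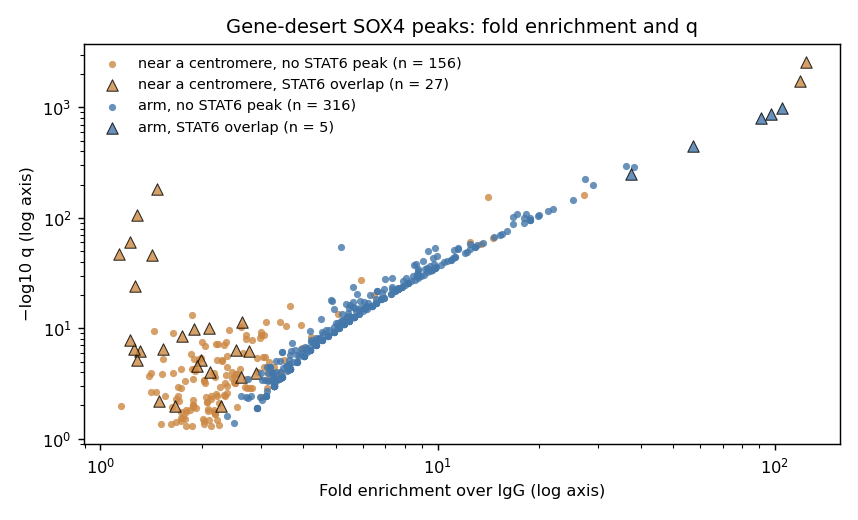
The −log10 q of each gene-desert SOX4 peak against its fold enrichment over IgG, both on log axes, with peaks near a centromere in orange, arm peaks in blue and triangles for peaks that overlap a STAT6 peak. Arm peaks form a narrow band, and a group of triangles with fold enrichment of 1.13 to 1.47 stands above its lower left end.

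The deserts with the most peaks all surrounded centromeres, and most of their peaks were weak, with medians of 1.66 to 2.34. Single peaks were strong, up to 14.1 on chromosome 22 and 124 on chromosome 20. The desert between LINC02798, listed as protein-coding in the table, and H3-7, a histone H3 gene, spans the chromosome 1 centromere and held 23 peaks of fold enrichment 1.13 to 3.93 (median 1.85), 10 of which overlapped a STAT6 peak. The desert from the start of chromosome 22 up to OR11H1 held 18 (1.39 to 14.1, median 2.31). The stretch between TPTE and POTED on chromosome 21 held 15 (1.63 to 3.65) in 2 Mb. The desert from the start of chromosome 13 up to TUBA3C, an alpha-tubulin gene, held 14 (1.71 to 3.08), all inside the hand-written centromere bounds. Chromosome 20 between ZNF337 and LOC124904970 held 11 (1.29 to 124, median 2.34), and chromosome 4 between CWH43 and DCUN1D4 also held 11 (1.47 to 2.52).

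The arm deserts with the most peaks, which were looked up after their values were seen, held fewer peaks but had higher medians. The 3.09 Mb between IGFBP7, which encodes an insulin-like growth factor binding protein, and LOC124900173 on chromosome 4 held 8 peaks of 3.49 to 17.3. The 1.03 Mb between ANKRD7 and KCND2, a voltage-gated potassium channel gene, on chromosome 7 held 7 peaks of 3.28 to 57.4, or 6.79 per Mb. The deserts between NCAM2 and MRPL39 on chromosome 21, OTOL1 and SI on chromosome 3, and PCDH7 and ARAP2 on chromosome 4 held 6 each, with medians of 5.74, 5.38 and 4.34.

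The 10 peaks with the highest fold enrichment fell on pseudogenes, long noncoding RNA genes and unannotated sequence. The first and second were at chr20:30214178-30215739 (124) and chr20:29641037-29642554 (119), over CFTRP3 and CFTRP2, pseudogenes of the chloride channel gene CFTR, within the centromeric desert of chromosome 20. The next in unannotated sequence, at chr21:20273669-20275488 (105) and chr21:19181158-19182898 (91.3), lay between TMPRSS15, the enteropeptidase gene, and NCAM2, a neural cell adhesion gene. Between them in height, the peak at chr13:82147174-82149019 (97.7), lay between SPRY2, an inhibitor of receptor tyrosine kinase signalling, and SLITRK1, a neuronal transmembrane protein, 1807 and 1729 kb away. The peak at chr7:119493808-119495307 (57.4), lay in the long noncoding RNA gene LOC124901816.

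The other 4 of the 10 had fold enrichments between 28.8 and 38.3. The peak at chr8:114029194-114030674 (38.3) lay between CSMD3 and TRPS1, a GATA-type zinc finger repressor, in no annotated gene. The peak at chr7:125454077-125455561 (37.4) lay in LOC100506664, a long noncoding RNA gene between POT1, a telomere-binding protein gene, and the glutamate receptor gene GRM8. The peaks at chr1:191145087-191146490 (36.2) and chr2:41157083-41158420 (28.8) lay over HNRNPA1P46 and HNRNPA1P57, pseudogenes of the splicing factor gene HNRNPA1. In 2 cases a strong peak had a weaker neighbour within 10 kb: chr21:20270381-20271820 (21.3) beside the peak of 105, and chr7:119490612-119491833 (20) beside the peak of 57.4.

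Pseudogenes carried many of the strong peaks. The 16 gene-desert peaks that touched a pseudogene had a median fold enrichment of 19.4 (3.1 to 124). Of the 16 gene-desert peaks that reached a fold enrichment of 20, 8 were among them. The same share over all SOX4 peaks of that height was not counted. Of 6 HNRNPA1 pseudogenes in gene deserts, 5 had a peak, with fold enrichments of 16.7 (HNRNPA1P20), 22.1 (HNRNPA1P64), 27.4 (HNRNPA1P47), 28.8 (HNRNPA1P57) and 36.2 (HNRNPA1P46), and none of these overlapped a STAT6 peak. Over the whole genome 64 of 75 had a SOX4 peak, and the parent gene HNRNPA1 had 1 peak of 33.4. Both CFTR pseudogenes in gene deserts had a peak, as did all 3 over the whole genome. CFTR itself had 21, of 21.4 to 148, with 19 of them over a STAT6 peak. Of 4 TSPY pseudogenes in gene deserts, TSPY5P and TSPY12P had peaks of 27.2 and 25.1. Over the whole genome 12 of 19 had a peak, and those outside deserts had a median of 30.9. Among 62 desert copies of mitochondrial genes 4 had a peak, of 4.86 to 5.94, all of them among the 12 copies of MT-CO1. Over the whole genome 8 of 58 MT-CO1 copies and 19 of 473 mitochondrial gene copies had one, and the mitochondrial chromosome itself had 1 peak of 4.21. Reads from near-identical copies can be placed on the wrong copy, so these peaks are uncertain as to locus, and the part of shared sequence in them was not tested. These families were chosen after their values were seen.

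Summits lay inside long noncoding RNA genes about as often as the length of these genes in the deserts would give. Of the 504 summits, 76 were inside a noncoding gene of any kind (15.1%, 12.2 to 18.5), in 12.5% of the desert sequence, and 63 of these were in long noncoding RNA genes (12.5%, 9.89 to 15.7, in 11.5% of the sequence). On the arms, 60 of 321 were in a long noncoding RNA gene (18.7%, 14.8 to 23.3), in 22% of the sequence. Pseudogenes held 11 summits (2.18%, 1.22 to 3.87) in 0.752% of the desert sequence, while 244 of the summits elsewhere lay in one (6.09%). No summit lay in a small RNA gene, and no miRNA gene lay within 1 kb of a peak. The remaining 2 lay in the immunoglobulin loci IGH (8.77) and IGK (4.82), whose gene segments are not listed as protein-coding, so that these loci count as deserts by the rule.

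No noncoding gene held 3 peaks. Long noncoding RNA genes with 2 were LOC124901816 (20 and 57.4), LINC03000 (5.73 and 18), LOC101928516 (13.1 and 14.7), LOC101928923 (5.19 and 9.17), MIR4300HG (3.4 and 5.28) and LOC105370463 (3.33 and 3.56). LOC124901816 is 39.8 kb long, the shortest of these 6, and LINC03000 is 765 kb long. LINC01194, beside the adhesion gene CTNND2, held a peak of 18.1.

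Deserts beside developmental regulators held few of the peaks. A list of transcription factor and signalling families counted 443 genes, of which 35 flanked a gene desert, and 17 peaks lay in such deserts (3.37%, 2.12 to 5.33), in 5.3% of the desert sequence. On the arms there were 16 (4.98%, 3.09 to 7.94) in 10.1% of the sequence. This was 0.706 per Mb (0.404 to 1.15), against 1.51 (1.34 to 1.69) in the other arm deserts. Of the 36 deserts beside a listed gene, 13 held a peak, against 177 of all 332 deserts. None of the 17 peaks overlapped a STAT6 peak. Of all 321 arm peaks only 5 did (1.56%), so none among 17 says little. Their median fold enrichment on the arms, 5.46, was near that of all arm peaks, 5.41.

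NR2F2, an orphan nuclear receptor of vascular and heart development, was among the listed genes whose deserts held 3 peaks. The 3 peaks beside it had fold enrichments of 3.59 to 12.5, the nearest 601 kb from the gene. ZEB2, a zinc finger repressor of epithelial genes, had 2 in its desert (2.49 and 3.27). Genes with a single peak in their deserts included BCL11B (5.65), BMP2 (4.67), FOXD4L6 (12.5), KLF4 (3.1), POU3F3 (4.37), POU3F4 (6.79), SOX11 (7.65) and ZIC1 (16.7). The peak beside ZIC1, a cerebellar transcription factor, was the one over HNRNPA1P20. GATA3, NR2F1, TFAP2A, EFNA5 and ISL1 were among the listed genes whose deserts held none.

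Of the SOX family, SOX11, SOX9 and SOX2 flanked a gene desert. SOX11, like SOX4 a SoxC factor, had a single peak in its 0.717 Mb of desert, 588 kb away with a fold enrichment of 7.65. SOX9, a regulator of cartilage and testis, had 0.941 Mb of desert with no peak, and SOX2, a pluripotency factor, 0.0791 Mb with none. No desert bordered SOX4, and the SOX4 peak nearest to it lay 548 kb away with a fold enrichment of 2.9.

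Gene families of neuronal adhesion and the synapse bordered more of the peaks than any of the other 3 gene lists. The families were taken by gene symbol, whatever the tissue of each member. On the arms their share of peaks was close to their share of the desert sequence. Of the 504 peaks, 131 lay beside a gene of this list (26%, 22.4 to 30), in 20.1% of the desert sequence, and 124 of the 321 arm peaks did (38.6%, 33.5 to 44.1), in 37.4% of the arm desert sequence. The densities on the arms were 1.48 per Mb beside these genes (1.23 to 1.76) and 1.4 away from them (1.21 to 1.61). NCAM2 bordered 11 peaks in 2 deserts (3.42 to 105), and the cadherin gene CDH11 bordered 6 (3.28 to 15.3). CSMD3 also bordered 6 (3.42 to 38.3), as did the protocadherin gene PCDH7 (3 to 6.95). Olfactory receptor genes bordered 29 peaks (5.75%) in 8.3% of the sequence, none of them on an arm, with a median fold enrichment of 2.33. Zinc finger genes bordered 38 (7.54%) in 4.2%, 6 of them on an arm, with a median of 2.36.

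STAT6 peaks overlapped a small share of the gene-desert peaks, and the overlaps were of 2 unlike kinds. By at least 1 bp, 32 of 504 overlapped a STAT6 peak (6.35%, 4.53 to 8.83), against 14.2% of all SOX4 peaks and 15.2% of those elsewhere (14.1 to 16.3). Near the centromeres 27 of 183 did (14.8%, 10.3 to 20.6), and on the arms 5 of 321 (1.56%, 0.667 to 3.59). For SOX4 peaks elsewhere the shares were 9.71% (6.15 to 15) near a centromere and 15.4% (14.3 to 16.6) on the arms. Of the 32 overlapping desert peaks, 7 had a SOX4 fold enrichment of 37.4 to 124 and the other 25 had 1.13 to 2.89, with none between.

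**Figure D5:**
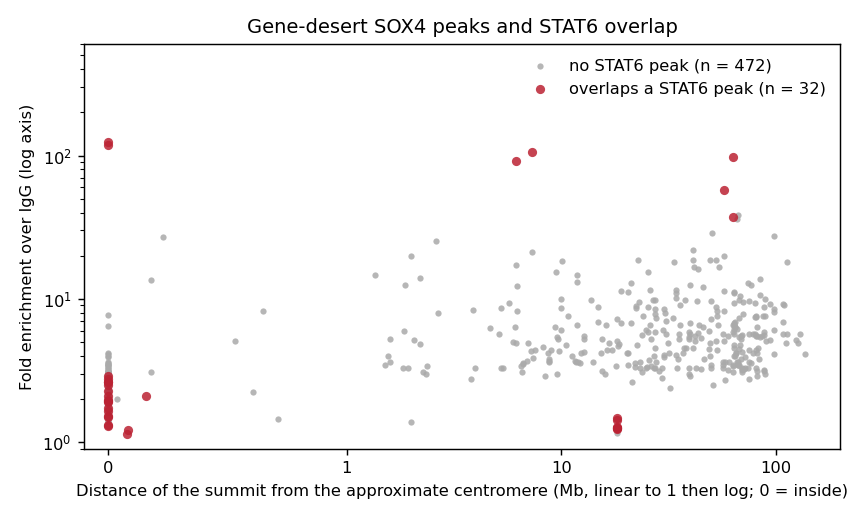
Fold enrichment over IgG (log axis) of each gene-desert SOX4 peak against the distance of its summit from the approximate centromere in Mb, with the 32 that overlap a STAT6 peak in red and the other 472 in grey. The red points split into 7 at 37.4 or above and 25 at 2.89 or below, and no red point lies between. The weak red points far to the right are on chromosome 1 and count as near a centromere by its gene-free stretch.

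The 7 strong overlapping peaks were the 2 CFTR pseudogene peaks and 5 arm peaks, and they are 7 of the 8 strongest gene-desert peaks. The exception among the 8 was the peak between CSMD3 and TRPS1. Their SOX4 widths were 1485 to 1846 bp, and each contained its STAT6 peak whole. In the order of SOX4 fold enrichment given above, the STAT6 fold enrichments were 11.7 at CFTRP3, 8.09 at CFTRP2, 7.96 and 9.17 for the peaks of 105 and 91.3 on chromosome 21, 13.6 on chromosome 13, 6.32 in LOC124901816 and 4.11 in LOC100506664. The summits of the 2 factors lay 9 to 141 bp apart, with a median of 33 bp. The closest pair, at 9 bp, was that between SPRY2 and SLITRK1.

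The 25 weak overlapping peaks all lay near a centromere as defined above. Those at chr1:143214342-143264161 did so only by the gene-free stretch, about 18 Mb from the hand-written bounds. Their SOX4 widths were 273 to 807 bp, and their STAT6 fold enrichments were 1.4 to 3.58 with a median of 2.19. Summits lay 2 to 318 bp apart, 22 of the 25 pairs within 200 bp. The 3 with the highest SOX4 fold enrichment were chr2:93012610-93012995 (2.89, STAT6 3.47), chr3:93298093-93298448 (2.76, STAT6 2.53) and chr22:14362870-14363276 (2.62, STAT6 2.74). The desert on chromosome 1 between LINC02798 and H3-7 held 10 of the 25, and the desert from the start of chromosome 22 up to OR11H1 held 4. Both lists share the IgG control, and its part in these overlaps was not tested.

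Seen from the STAT6 list, 193 of its 1078 peaks lay in gene deserts (17.9%), and 161 of these were near a centromere (83.4%). Of the 193, 32 overlapped a SOX4 peak (16.6%, 12 to 22.5). The same share was not counted over all 1078 STAT6 peaks or over those outside deserts. Seen from the SOX4 list, 640 of all 4513 peaks overlapped a STAT6 peak. The median STAT6 fold enrichment of the 193 was 2.45, against 8.39 for STAT6 peaks elsewhere. On the arms 32 STAT6 peaks lay in gene deserts and 5 of them overlapped a SOX4 peak. For gene-desert SOX4 peaks without an overlap, the nearest STAT6 peak was at a median distance of 177 kb near centromeres and 7712 kb on the arms.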

How the data were processed

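Hep3B CUT&RUN libraries for SOX4, STAT6 and IgG (1 each) were sequenced as 150 bp paired-end reads. The submitters' processing notes name Partek, BWA and hg38. The version and threshold of the caller and the handling of multiply mapping reads are not given in the sources used here. For each peak the authors deposited the position, the summit, the −log10 p, the −log10 q and, as a ratio, the fold enrichment over IgG, called per library against IgG. The lowest −log10 q in the SOX4 list was 1.31. Depth is unknown.

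The members and gene lists were chosen with earlier results of these data known. Genes came from the RefSeq table (GRCh38.p14). From it 718 entries with scaffold coordinates were removed, leaving 58961 on chromosomes (19866 protein-coding), and 47 pseudoautosomal genes listed on X were copied to Y. A chromosome's length was the largest position among genes and peaks, and assembly gaps were not removed. Distances ran from the summit to the nearest gene end. Desert flanks were the nearest protein-coding genes. Shares have Wilson intervals and densities exact Poisson intervals. Hand-written centromere bounds came from general knowledge. With 1 library per antibody no test was run. The counting steps were tested on simulated data.

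Named items were the 10 strongest members, the 10 strongest overlapping STAT6 (others by count), the 5 fullest deserts (6 with a tie), the 3 farthest members, the 3 nearest the limit on each side, noncoding genes with 3 or more members, miRNA genes within 1 kb, developmental genes beside 3 or more members, and SOX genes. Some developmental genes are not reported here. Any other item was chosen after its values were seen. Python 3.11.15, numpy 2.4.6, pandas 2.3.3 and scipy 1.17.1 were used. No genome sequence was used, so summit sequence was not analysed here.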

Additional observations from a re-analysis of the deposited data

How the results depend on the processing

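Of 36 alternatives over 8 results, 15 stayed close to the value given, 20 moved it and 1 turned its direction. The 9 that concern arm or centromere subsets, either placing of the centromere or the gene table as it stands were chosen after seeing the data. The number of gene-desert peaks was 855 with a limit of 250 kb, 204 with 1000 kb, 317 with −log10 q required to reach 5 and 191 with fold enrichment required to reach 5. It was 503 with the whole peak in place of its summit and 507 with the gene table as it stands. The share overlapping a STAT6 peak was 4.09% with 250 kb, 1.56% for arm peaks and 14.8% for peaks near a centromere. The median fold enrichment was 4.46 with 250 kb, 2.92 with 1000 kb, 5.63 with −log10 q required to reach 5 and 5.41 for arm peaks. The pericentromeric share was 33.5% with a reach of 5 Mb, 34.5% with hand-written bounds and 36.3% with either placing. The share inside a noncoding gene was 21.5% for arm peaks. The share beside a developmental gene was 1.59% by the nearer gene alone and 7.34% with each desert counted once. The ratio of densities, 0.751, was 0.463 for peaks whose fold enrichment reached 5, 0.85 for these on the arms, 0.959 without pericentromeric and subtelomeric sequence, and 1.1 (0.979 to 1.23) on the arms without peaks that overlap STAT6. The counts behind each setting differ by construction, and no further cause was tested. No paired analysis was possible because no antibody was repeated. The read depth, which is unknown, limits every count and share.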
